A study of Danio rerio with 18 samples.

Results

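The cytokine receptors tnfrsf11b, tnfrsf1a, il6st and il13ra1 and the feedback inhibitors socs3a and socs3b were examined in whole zebrafish larvae exposed to lipopolysaccharide (LPS), the outer membrane glycolipid of Gram-negative bacteria. The 6 genes were chosen by name among the 31624 gene rows of the count table, and all 6 were matched to a row. Their Ensembl rows are ENSDARG00000098377 (tnfrsf11b), ENSDARG00000018569 (tnfrsf1a), ENSDARG00000104693 (il6st), ENSDARG00000080020 (il13ra1), ENSDARG00000025428 (socs3a) and ENSDARG00000026611 (socs3b). Larvae of the AB strain came from 3 combinations of incubation and challenge temperature, written in that order as 24 × 24 °C, 24 × 32 °C and 32 × 24 °C. The move to the challenge temperature began at the first-feeding stage. The LPS challenge started later, so the sequenced larvae were past that stage. In each combination, 3 libraries came from larvae held for 24 h in distilled water with LPS from Pseudomonas aeruginosa 10, and 3 from control larvae held in distilled water with the buffer alone. The labels give the LPS concentration as 10 mg/L, while the study's methods give a lower concentration, so the dose is uncertain. Each library was made from a pool of unfed whole larvae taken after the challenge, in groups whose mortality differed. The methods describe repeats of the experiment with other parent fish, but nothing in the labels ties a pool to a repeat, beaker or brood, so p-values measure the spread between these pools. First feeding was reached at a younger age at 32 °C than at 24 °C, so age and incubation temperature cannot be told apart in the 32 × 24 °C larvae.

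Cytokines signal through a few shared receptor chains. The il6st product is the common signalling chain of the interleukin-6 family and works with ligand-specific partners such as the receptors for interleukin-6, interleukin-11 and leukemia inhibitory factor, il13ra1 encodes a chain that pairs with the interleukin-4 receptor to bind interleukin-4 and interleukin-13, and tnfrsf1a encodes a death-domain receptor for tumour necrosis factor. The tnfrsf11b product, osteoprotegerin, is a soluble decoy receptor known in mammals for trapping the osteoclast-inducing ligand encoded by tnfsf11. Chains of the interleukin-6 family activate JAK kinases and STAT3, and STAT3 induces SOCS3, which in turn binds the receptor chain and the kinase and shuts signalling down. Zebrafish carry 2 SOCS3 paralogs, socs3a and socs3b.

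The libraries held 1868228 to 8261920 counts, and 5 of the 6 libraries at 24 × 24 °C were deeper than any at the other combinations. Together, the 9 LPS libraries held 28569714 counts and the 9 control libraries 36271072. Raw counts of the 2 sets therefore also differ by depth, and pooled CPM are given beside them. Levels are given as CPM, the count scaled by the effective library size as in edgeR's cpm function, without correction for gene length, so levels of different genes are not compared. A gene was called when the Benjamini-Hochberg adjusted p of edgeR's quasi-likelihood test was under 0.05 and the fold change was at least 1.5. Of the 31624 rows, 15722 passed the filter on low counts, among them 5 members; socs3a did not pass. Fewer cells of a type and less RNA per cell cannot be told apart in these whole-larva libraries.

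All 5 tested members were up-regulated in LPS larvae when the LPS effect was averaged over the 3 temperature combinations. The averaged fold change was 2.95 for tnfrsf11b and between 1.67 and 1.81 for tnfrsf1a, il6st, il13ra1 and socs3b. Over all genes, 1.7% were called higher and 0.814% lower in this comparison, and the median log2 fold change of all tested genes was -0.003. By p, the 5 members ranked 97 to 271 among the 15722 genes. Of the 45 member values in LPS libraries, 42 lay above every control library of the same temperature combination, as did 28.3% of such values over all tested genes. The study's own list of genes raised by LPS was made from these same libraries and names the 5 tested members. Their direction, calls, ranks and values above controls are therefore not independent of that list. The shares over all genes given beside them are a description and no test of the members.

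**Figure D1:**
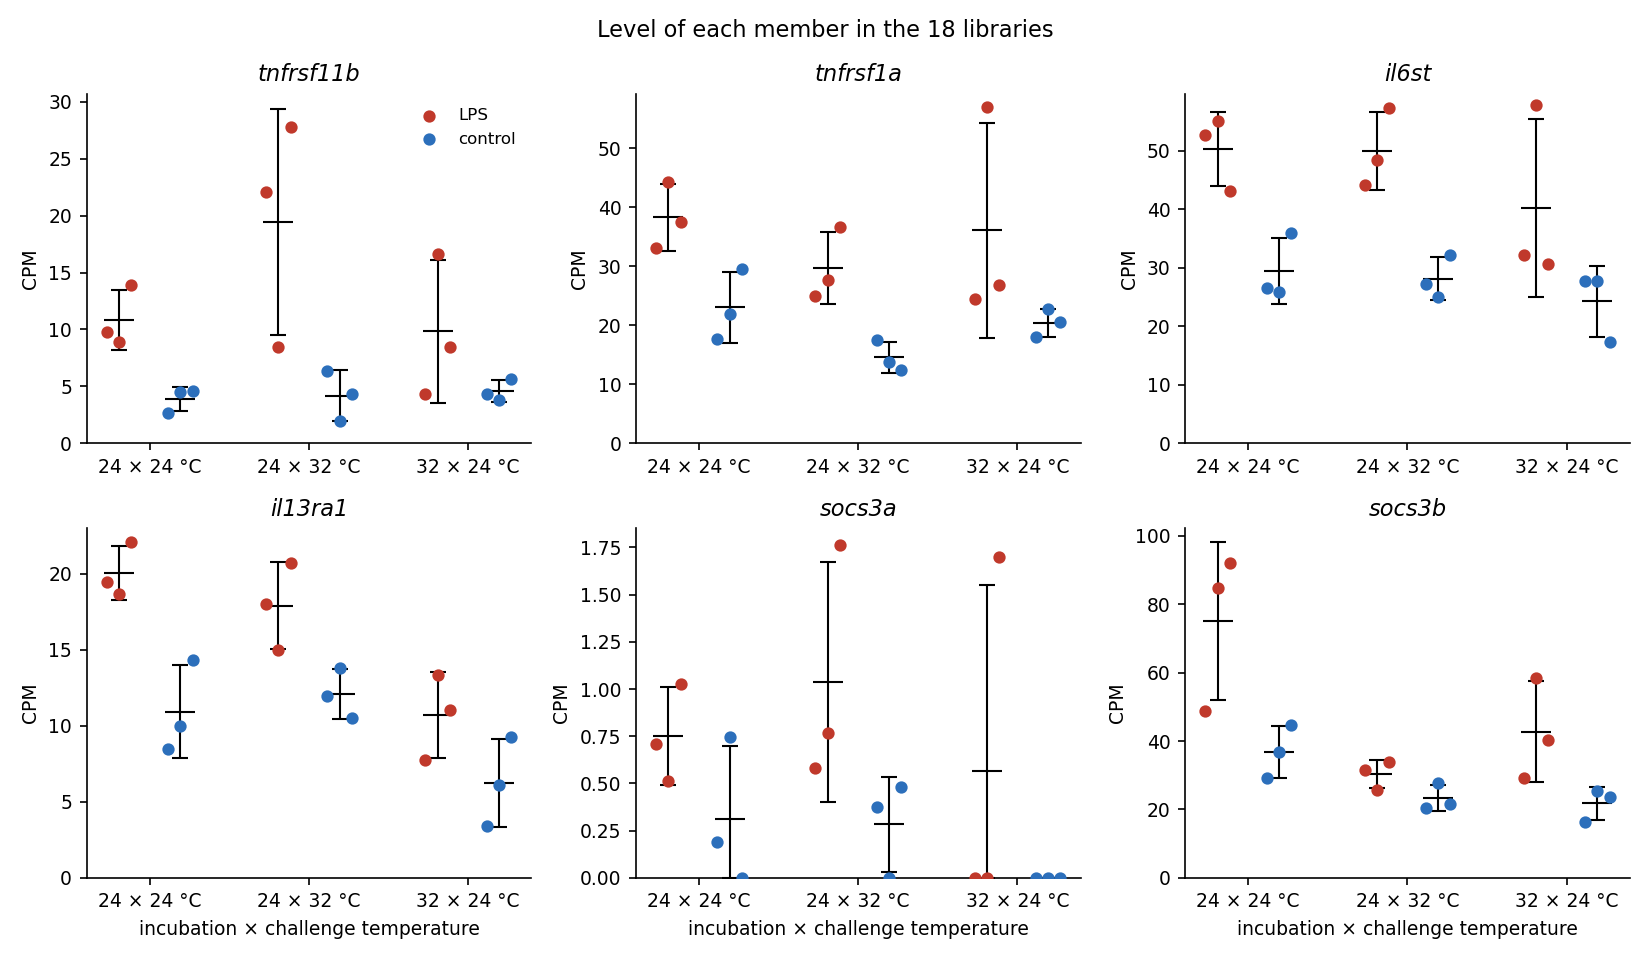
Level of each of the 6 genes in CPM (vertical axis) in the 18 libraries, by combination of incubation and challenge temperature (horizontal axis). Points are libraries, with LPS in red on the left and control in blue on the right of each pair, and bars give the mean ± SD of 3 libraries (drawn down to 0 where the SD exceeds the mean). In tnfrsf1a and il6st the LPS points lie above the control points at each combination.

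The decoy receptor gene tnfrsf11b had the largest averaged change of the members. At 24 × 32 °C it was measured at 22.1, 8.46 and 27.8 CPM in the LPS libraries, against 6.34, 1.92 and 4.32 CPM in the controls. The LPS libraries at 24 × 24 °C held 9.75, 8.90 and 13.9 CPM and the controls 2.69, 4.47 and 4.58 CPM. These groups did not overlap at either combination, whereas at 32 × 24 °C they did. There, the LPS libraries held 4.30, 16.7 and 8.50 CPM and the controls 4.30, 3.80 and 5.63 CPM. Averaged over the combinations, tnfrsf11b rose by 1.56 ± 0.28 on the log2 scale (SE; adjusted p = 0.00218). It was the only member called within a single combination, with a log2 fold change of 2.18 ± 0.51 at 24 × 32 °C (SE, adjusted p = 0.0254). That call was lost, with adjusted p up to 0.128, when LPS replicate 1 or 3 or control replicate 2 or 3 of 24 × 32 °C was left out, and in edgeR's fit of the 6 libraries of that combination (adjusted p = 0.0597). The study had already listed tnfrsf11b as raised there, from these same libraries.

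The signalling receptor of the same system was not called for LPS, and the ligand had too few counts to be tested. The gene of the signalling receptor for the same ligand, tnfrsf11a, averaged 8.85 ± 1.91 CPM in LPS larvae and 8.96 ± 1.43 CPM in control larvae at 24 × 24 °C (SD, n = 3 each). Its means were 5.24 ± 0.56 CPM with LPS and 8.17 ± 1.1 CPM in controls at 24 × 32 °C, without overlap (log2 fold change -0.62, adjusted p = 0.277), and 8.50 ± 1.41 CPM with LPS and 9.01 ± 1.50 CPM in controls at 32 × 24 °C. Its averaged log2 fold change of -0.22 was not significant (adjusted p = 0.545). The ligand gene tnfsf11 had only 12 counts over the 9 LPS libraries and 10 over the 9 control libraries (pooled 0.416 and 0.275 CPM). It was not tested. Osteoblast markers were few: bglap had 1 count in all and runx2b had 8, and of the 5 listed markers only col10a1a was tested, which fell by 1.09 on the log2 scale in LPS larvae (adjusted p = 0.0395). The study's own list of genes lowered by LPS at 24 × 24 °C, from these same libraries, already names col10a1a.

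The tumour necrosis factor receptor gene tnfrsf1a was higher in every LPS library than in every control library of its combination. At 24 × 24 °C it had 33.1, 44.4 and 37.5 CPM with LPS, against 17.7, 21.9 and 29.6 CPM in controls. The values at 24 × 32 °C were 25.0, 27.7 and 36.6 CPM with LPS, against 17.5, 13.8 and 12.5 CPM in controls. Those at 32 × 24 °C were 24.5, 57.1 and 26.8 CPM with LPS, against 18.1, 22.8 and 20.5 CPM in controls. The gap was narrowest at 32 × 24 °C, where LPS replicates 1 and 3 lay close to the highest control. Averaged, tnfrsf1a rose by 0.86 ± 0.16 on the log2 scale (SE; adjusted p = 0.00347). Its ligand genes were scarce. The classical ligand tnfa had 3 counts over all LPS libraries and 1 over all controls. The second ligand gene, tnfb, was tested and had 2.26, 4.28 and 3.60 CPM in LPS larvae and 0.385, 0.298 and 1.65 CPM in control larvae at 24 × 24 °C, without overlap (log2 fold change 1.92, adjusted p = 0.537). It had 4.65, 0.769 and 14.1 CPM in LPS larvae and 1.49, 1.92 and 0.959 CPM in control larvae at 24 × 32 °C (2.1, adjusted p = 0.223). The groups overlapped there, as they did at 32 × 24 °C, where it had 1.72, 1.11 and 0 CPM with LPS, against 0.287, 2.28 and 0.402 CPM in controls (0.01, adjusted p = 1). Its averaged log2 fold change of 1.34 ± 0.59 was not significant (SE, adjusted p = 0.292). The other tumour necrosis factor receptor gene, tnfrsf1b, had 83 counts in LPS and 70 in control libraries (pooled 2.88 and 1.92 CPM). It did not pass the filter.

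The shared interleukin-6 family chain il6st had the smallest p of the 5 tested members for the averaged LPS effect, and its LPS and control groups did not overlap at any combination. At 24 × 24 °C the LPS libraries held 52.7, 55.1 and 43.1 CPM and the controls 26.6, 25.8 and 36 CPM. The LPS libraries at 24 × 32 °C held 44.2, 48.4 and 57.3 CPM and the controls 27.2, 24.9 and 32.1 CPM. The LPS libraries at 32 × 24 °C held 32.2, 57.8 and 30.6 CPM and the controls 27.8, 27.7 and 17.3 CPM. The averaged log2 fold change was 0.78 ± 0.13 (SE, adjusted p = 0.00107), and the 3 single estimates were close to each other at 0.78, 0.84 and 0.73. Of the 5 tested members, il6st and tnfrsf1a were the 2 whose groups separated at all 3 combinations, which 0.566% of all tested genes did in the same direction.

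The partner chain lifrb, a receptor for leukemia inhibitory factor that signals together with il6st, was also up-regulated. It had 13.3, 19 and 15.4 CPM with LPS, against 4.43, 5.37 and 6.82 CPM in controls at 24 × 24 °C. The levels at 24 × 32 °C were 15.7, 11.5 and 19.9 CPM with LPS, against 4.11, 1.53 and 4.80 CPM in controls, and those at 32 × 24 °C were 6.44, 14.4 and 10.6 CPM with LPS, against 3.15, 5.70 and 3.22 CPM in controls. The groups did not overlap at any combination. Its averaged log2 fold change was 1.70 ± 0.21 (SE, adjusted p = 4.78e-05), and it was also called at 24 × 24 °C (1.50, adjusted p = 0.0192) and at 24 × 32 °C (2.18, adjusted p = 0.00553) but not at 32 × 24 °C (1.41, adjusted p = 0.267). At 24 × 24 °C the call was lost with adjusted p up to 0.213 without control replicate 1 or 2 or LPS replicate 2 or 3, and at the depth of the smallest library (0.95, adjusted p = 0.61). The study's own list of genes raised by LPS at 24 × 24 °C came from these same libraries and names lifrb. The rise of lifrb is therefore not independent of that list.

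Of the listed ligands of the interleukin-6 family 3 were tested, and none was called for the averaged LPS effect (log2 fold change 0.135 to 0.815). Of its listed receptors 3 were tested, and only lifrb was called (-0.127 to 1.696). Several other receptors and ligands of the family had few counts. The interleukin-6 gene il6 had a single count in the 18 libraries. Its receptor il6r had 60 counts in LPS and 101 in control libraries (pooled 2.08 and 2.78 CPM). The interleukin-11 gene il11a had 35 counts over the 9 LPS libraries, pooled 1.21 CPM (95% exact Poisson interval 0.846 to 1.69), and 4 counts over the 9 controls, pooled 0.110 CPM (0.0300 to 0.282). A count was seen in 8 LPS libraries and in 3 control libraries, and the control counts were confined to 24 × 24 °C. Its row failed the filter, and in the fit without a filter edgeR gave an adjusted p of 0.00876 for the averaged LPS effect, which was 0.0883 without LPS replicate 1 of 32 × 24 °C. The paralog il11b also had 35 counts in LPS libraries and 13 in controls (pooled 1.21 and 0.357 CPM, edgeR adjusted p = 0.14 without a filter). Intervals on pooled counts cover counting error only. The interleukin-11 receptor gene il11ra had 28 counts in LPS and 34 in control libraries (pooled 0.971 and 0.934 CPM). For lifra the counts were 24 and 12 (0.832 and 0.330 CPM), and for the ligand gene lif 39 and 34 (1.35 and 0.934 CPM). For lifra, 17 of the LPS counts lay in LPS replicate 2 of 24 × 32 °C and 5 of the control counts in control replicate 2 of 24 × 32 °C.

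**Figure D2:**
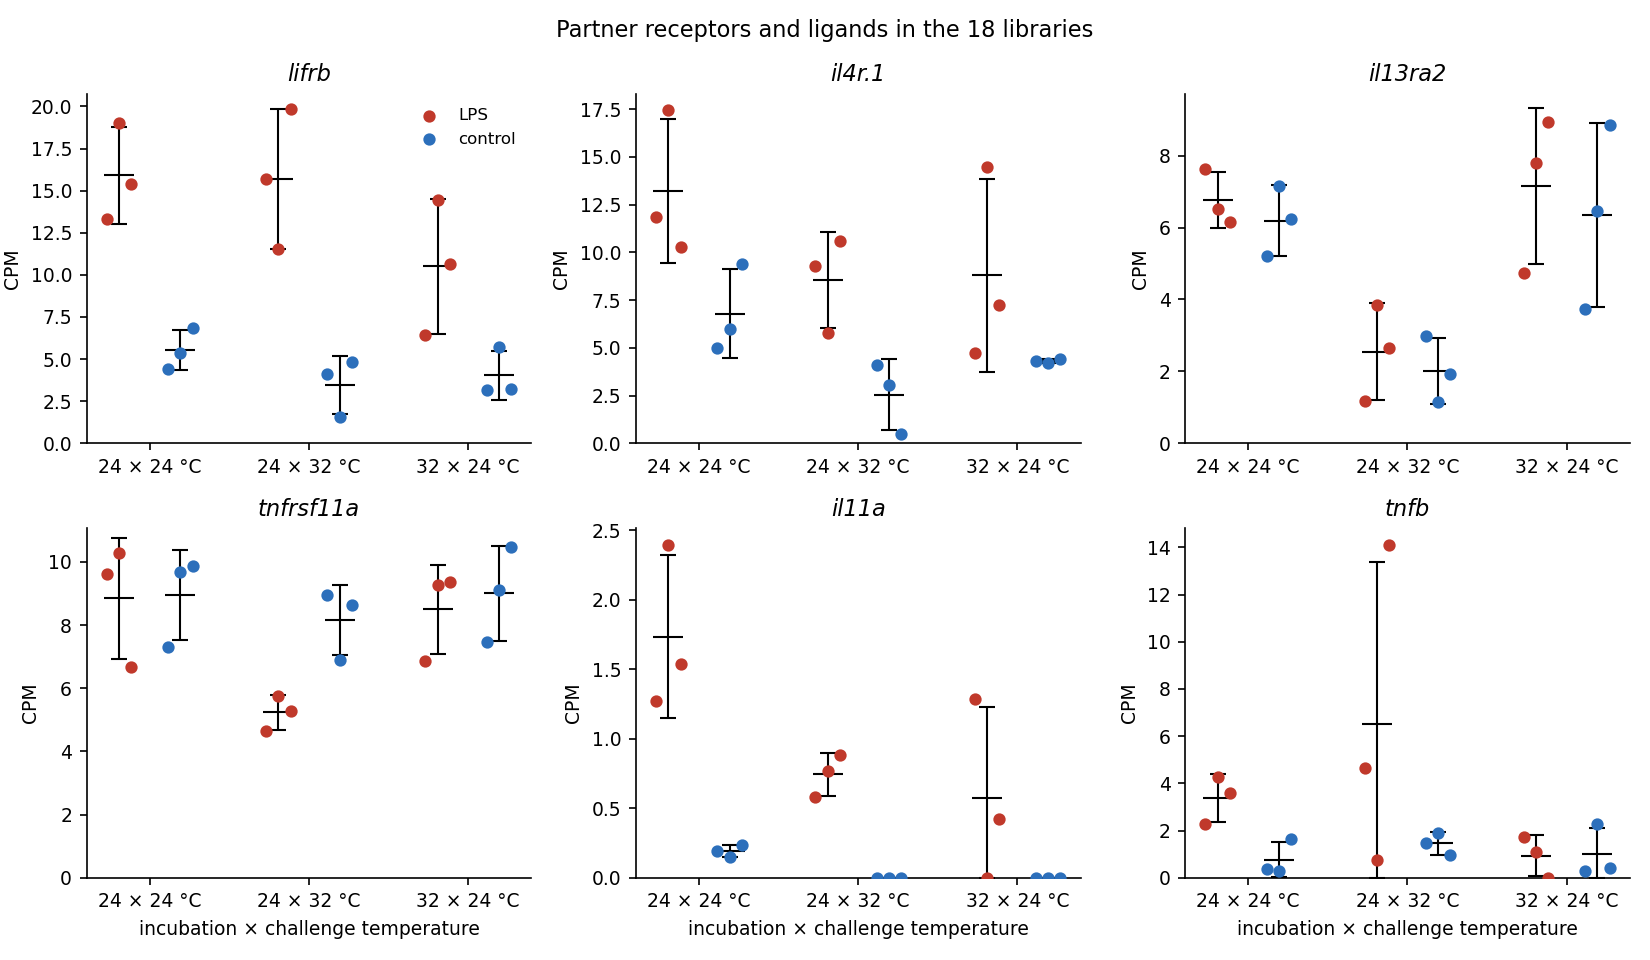
Level in CPM (vertical axis) of the partner receptors lifrb, il4r.1, il13ra2 and tnfrsf11a and the ligands il11a and tnfb in the 18 libraries, by combination of incubation and challenge temperature (horizontal axis). Points are libraries, LPS in red to the left of control in blue, and bars give the mean ± SD of 3 libraries (drawn down to 0 where the SD exceeds the mean). LPS points lie above all control points of their combination for lifrb and il4r.1, and il13ra2 is low in both groups at 24 × 32 °C.

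The interleukin-13 receptor chain il13ra1 was measured at 24 × 24 °C at 19.5, 18.7 and 22.1 CPM in LPS larvae and 8.47, 9.99 and 14.3 CPM in control larvae. At 24 × 32 °C it had 18.0, 15 and 20.7 CPM with LPS, against 11.9, 13.8 and 10.6 CPM in controls. The levels at 32 × 24 °C were 7.73, 13.3 and 11.1 CPM with LPS, against 3.44, 6.08 and 9.25 CPM in controls. The groups overlapped only at 32 × 24 °C, where the means of both LPS and control larvae were lower than in the other combinations. Averaged, il13ra1 rose by 0.74 ± 0.16 on the log2 scale (SE; adjusted p = 0.0108), the smallest change of the tested members.

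The chain that il13ra1 pairs with moved in the same direction. The interleukin-4 receptor gene il4r.1 had 11.9, 17.5 and 10.3 CPM in LPS larvae and 5, 5.96 and 9.40 CPM in control larvae at 24 × 24 °C. At 24 × 32 °C it had 9.30, 5.76 and 10.6 CPM with LPS, against 4.11, 3.07 and 0.480 CPM in controls, the last from 1 count. At 32 × 24 °C it had 4.725, 14.45 and 7.226 CPM with LPS, against 4.30, 4.179 and 4.423 CPM in controls. LPS replicate 1 there lay close to the highest control of il4r.1. Its averaged log2 fold change was 1.22 ± 0.26 (SE, adjusted p = 0.00713), and it was not called within any single combination. The decoy receptor of interleukin-13, il13ra2, had an averaged log2 fold change of 0.25 ± 0.24 (SE, adjusted p = 0.712). The ligand genes were too sparse to test. For il4 there were 5 counts in LPS and 7 in control libraries (pooled 0.173 and 0.192 CPM), and for il13 22 and 12 (0.763 and 0.330 CPM).

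The feedback inhibitor socs3b was measured at 48.9, 84.6 and 91.9 CPM in the LPS libraries at 24 × 24 °C, against 29.2, 36.7 and 44.5 CPM in the controls. At 24 × 32 °C the levels were 31.4, 25.8 and 34.0 CPM with LPS, against 20.5, 27.6 and 21.6 CPM in controls. At 32 × 24 °C they were 29.2, 58.5 and 40.4 CPM with LPS, against 16.3, 25.5 and 23.7 CPM in controls. The groups overlapped only at 24 × 32 °C, where LPS replicate 2 lay below the highest control. Averaged, socs3b rose by 0.79 ± 0.16 on the log2 scale (SE; adjusted p = 0.00556). The mean of the 24 × 24 °C LPS larvae was the highest of the 6 groups at 75.1 ± 23.0 CPM, and the mean of the 24 × 32 °C LPS larvae, 30.4 ± 4.20 CPM, was below that of the 24 × 24 °C controls, 36.8 ± 7.65 CPM (SD, n = 3 each), with overlapping libraries.

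The paralog socs3a was close to absent. It had 29 counts in the 18 libraries, of which 21 fell in LPS libraries (2 of 9 at 0) and 8 in control libraries (5 of 9 at 0). Pooled, this gave 0.728 CPM in LPS larvae (95% exact Poisson interval 0.451 to 1.11) and 0.220 CPM in controls (0.0949 to 0.433). The LPS libraries at 24 × 24 °C had 5, 3 and 2 counts and the controls 1, 5 and 0. The LPS libraries at 24 × 32 °C had 1, 2 and 4 counts and the controls 1, 0 and 1. At 32 × 24 °C all 4 counts were in LPS replicate 3, and the 3 controls had none. Without the filter, edgeR gave the averaged LPS effect on socs3a a p of 0.00941 and an adjusted p of 0.202, so no change was shown at this depth. A library at 0 allows up to 3 counts, which in these 7 libraries corresponds to 0.353 to 1.29 CPM. Within the libraries, socs3b made up 95.1 to 100% of the counts of the 2 paralogs, a share of counts that is not corrected for gene length.

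Within single combinations few members passed the test. At 24 × 24 °C edgeR called none of the 5, with adjusted p of 0.269 for tnfrsf11b, 0.362 for tnfrsf1a, 0.129 for il6st, 0.179 for il13ra1 and 0.0844 for socs3b, where 0.235% of all genes were called higher. All 5 had an unadjusted p under 0.05 with a positive log2 fold change (0.72 to 1.38), as did 3.26% of all genes. All 5 also had LPS and control groups that did not overlap there, as did 9.24% of all genes in that direction. DESeq2 called 1 member on all 18 libraries (socs3b), and on the 6 libraries of this combination alone edgeR called 3 and DESeq2 all 5. The 0.235% is of edgeR's fit of all libraries and not of these fits. All genes called in either direction numbered 67 in that fit and 45 to 332 over the alternatives. The study's own DESeq2 list of genes raised by LPS at this combination came from these same libraries and names all 5. The counts of members in this paragraph are therefore not independent of that list.

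At 24 × 32 °C 1 member was called (tnfrsf11b), where 1.36% of all genes were called higher. The study's own list from these same libraries names tnfrsf11b at this combination, so that call is not independent of it. The log2 fold changes of the others were 1.02 for tnfrsf1a (adjusted p = 0.0842), 0.84 for il6st (0.064), 0.55 for il13ra1 (0.332) and 0.38 for socs3b (0.548). The groups did not overlap for 4 of the 5 (socs3b overlapped), as for 10% of all genes in that direction. DESeq2 on all 18 libraries called tnfrsf11b, tnfrsf1a and il6st. All genes called there in either direction numbered 307 in edgeR's fit of all libraries and 258 to 448 over the alternatives. At 32 × 24 °C none of the 5 was called by edgeR or DESeq2, and 0.0191% of all genes were called higher by edgeR. All 5 had an unadjusted p under 0.05 with a positive log2 fold change (0.73 to 1.13), as did 3.24% of all genes. The groups did not overlap for 3 of the 5, as for 4.39% of all genes in that direction, and the adjusted p was 0.335 for socs3b and 0.532 to 0.883 for the receptors.

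**Figure D3:**
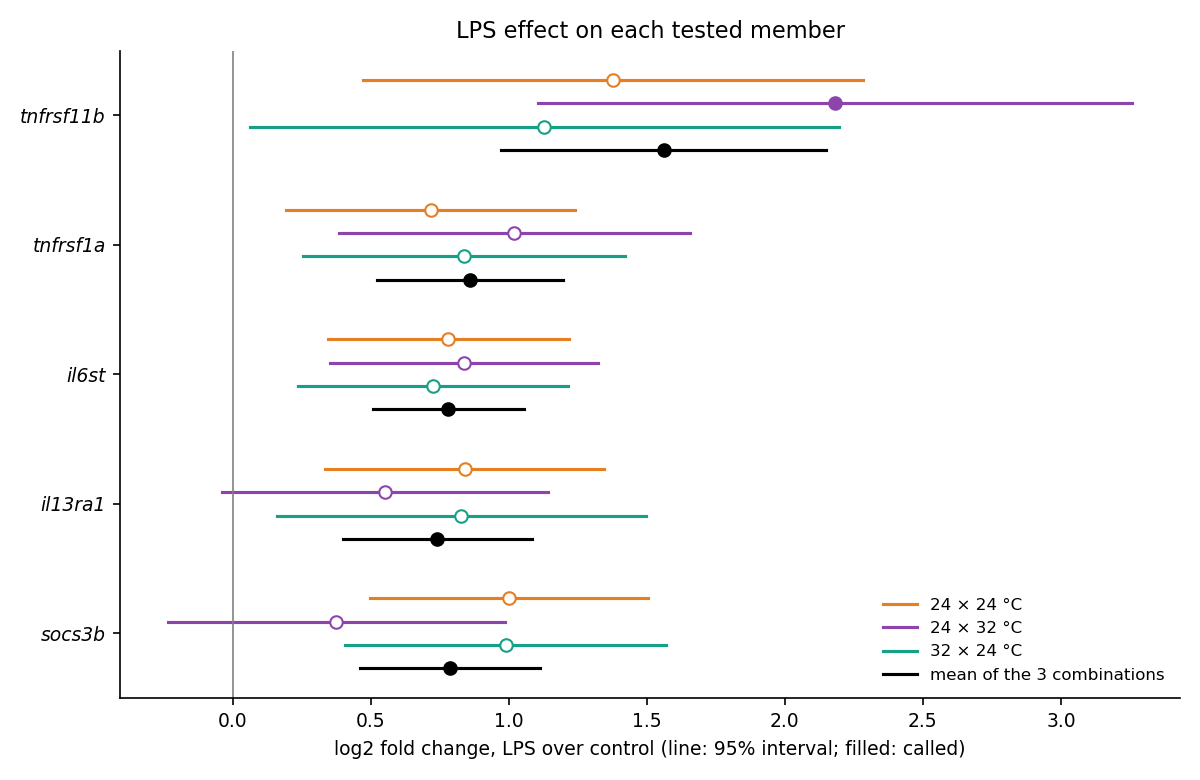
Log2 fold change of LPS over control (horizontal axis) for the 5 tested members (vertical axis) at each temperature combination and averaged over the 3. Lines are 95% intervals of the edgeR fit and filled points passed both thresholds: all 5 averaged effects and tnfrsf11b at 24 × 32 °C.

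One pool stood above the others of its group at 32 × 24 °C. LPS replicate 2 of that group was the highest of its 3 libraries for each of the 5 tested members, at 3.64 times the control mean for tnfrsf11b, 2.79 for tnfrsf1a, 2.38 for il6st, 2.13 for il13ra1 and 2.68 for socs3b. LPS replicate 1 was at 0.939 to 1.34 times the control mean for the same genes. Without replicate 2, the log2 fold changes at 32 × 24 °C were 0.51 for tnfrsf11b, 0.35 for tnfrsf1a, 0.38 for il6st, 0.65 for il13ra1 and 0.70 for socs3b, and none was called. The averaged effects stayed called without it, at 1.37 for tnfrsf11b and 0.68 to 0.71 for the others, with adjusted p of 0.0315 or less. Within groups, the log2 levels of pairs of members correlated over the 18 libraries with Pearson's r between -0.018 (il6st and il13ra1) and 0.723 (il13ra1 and socs3b), a description in which both genes share each library.

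**Figure D4:**
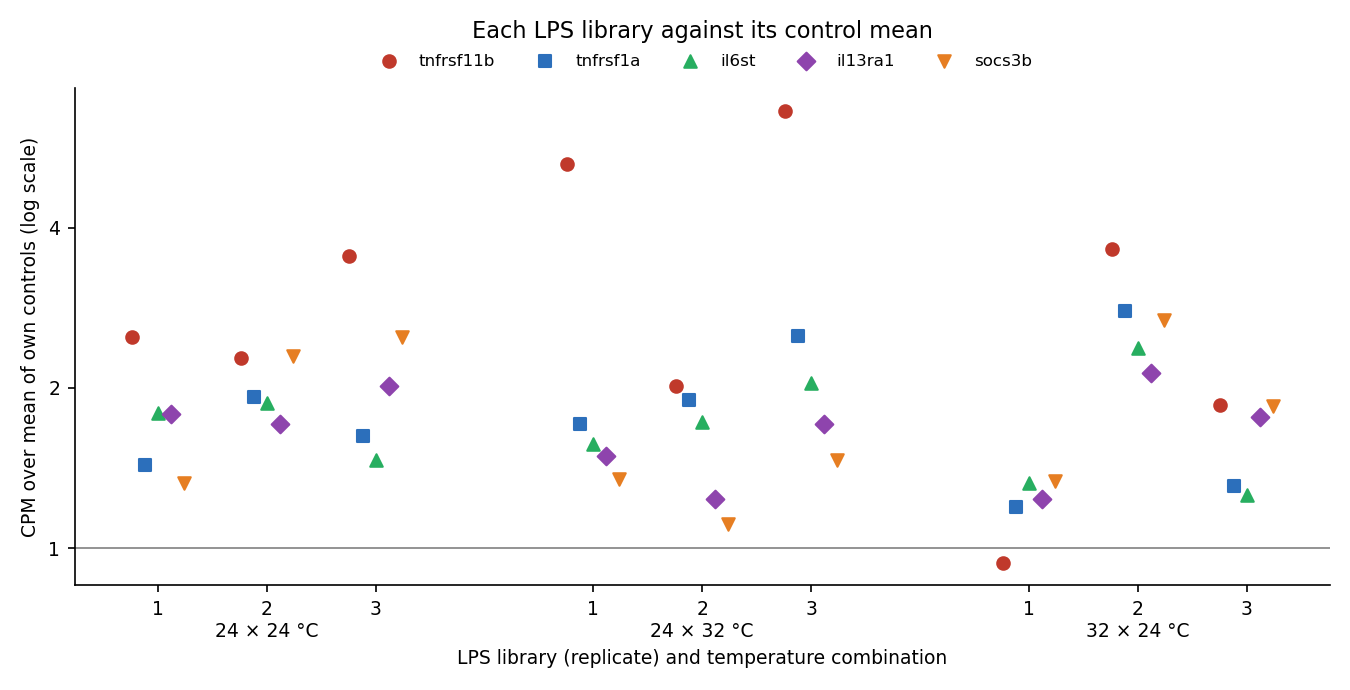
Level of each tested member in each LPS library divided by the mean of the 3 controls of the same temperature combination (vertical axis, log scale), by LPS replicate and combination (horizontal axis). Colours and marker shapes stand for genes. At 32 × 24 °C the points of replicate 2 lie between 2.13 and 3.64, above those of replicates 1 and 3.

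Whether temperature changed the LPS response was tested with the difference between LPS effects. None of the 5 members differed between 24 × 32 °C and 24 × 24 °C by edgeR or DESeq2, and none had an unadjusted p under 0.05, where 0.00636% of all genes were called and 7.54% had an unadjusted p under 0.05. The difference in log2 fold change was 0.80 for tnfrsf11b (95% interval -0.60 to 2.21, adjusted p = 0.795) and -0.62 for socs3b (-1.41 to 0.17, adjusted p = 0.719). Between 32 × 24 °C and 24 × 24 °C no member differed either, with adjusted p of 1 for all 5 and no unadjusted p under 0.05. That difference was -0.25 for tnfrsf11b (95% interval -1.65 to 1.15) and -0.01 for socs3b (-0.78 to 0.76). edgeR and DESeq2 called 0 genes of the whole table there, and 2.57% had an unadjusted p under 0.05 by edgeR. By challenge temperature the intervals were -0.52 to 1.13 for tnfrsf1a, -0.60 to 0.71 for il6st and -1.07 to 0.49 for il13ra1. Each interval included 0, and with 3 pools a group any difference within it remained compatible with the data.

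Control larvae of the different temperatures gave the baseline of each gene. No member was called by edgeR between the 24 × 32 °C and the 24 × 24 °C controls, where 6.21% of all genes were called in either direction. The levels of tnfrsf1a averaged 14.6 ± 2.63 CPM in 24 × 32 °C controls and 23.1 ± 6.04 CPM in 24 × 24 °C controls (SD, n = 3 each), and the libraries did not overlap, as for 16.6% of all genes in that direction (log2 fold change -0.66, adjusted p = 0.17). The levels of socs3b averaged 23.2 ± 3.84 CPM in 24 × 32 °C controls and 36.8 ± 7.65 CPM in 24 × 24 °C controls, also without overlap (-0.67, adjusted p = 0.137). Both had an unadjusted p under 0.05, as did 22.7% of all genes. DESeq2 called neither on all 18 libraries, while on the 6 libraries of this comparison edgeR called both and DESeq2 called socs3b. The shares above are of edgeR's fit of all libraries, where 976 genes were called, against 658 to 1616 over the alternatives.

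Between the 32 × 24 °C and the 24 × 24 °C controls no member was called by edgeR or DESeq2 either, where 0.49% of all genes were called by edgeR. il13ra1 averaged 6.26 ± 2.91 CPM in 32 × 24 °C controls and 10.9 ± 3.05 CPM in 24 × 24 °C controls (log2 fold change -0.87, adjusted p = 0.195). socs3b averaged 21.8 ± 4.84 CPM in 32 × 24 °C controls and 36.8 ± 7.65 CPM in 24 × 24 °C controls, without overlap, as for 10.8% of all genes in that direction (-0.78, adjusted p = 0.213). These 2 members had an unadjusted p under 0.05, as did 12.7% of all genes. The comparisons of temperatures share the 24 × 24 °C controls, so the lower socs3b values in both are not independent of each other. The mean baselines of tnfrsf11b (3.92 to 4.58 CPM) and il6st (24.3 to 29.4 CPM) came from control groups whose libraries overlapped.

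Across the 6 groups, the mean levels of tnfrsf11b, tnfrsf1a and il6st were ordered with the 3 LPS groups above the 3 control groups. Neighbours in these orders overlapped, except the 32 × 24 °C and 24 × 32 °C controls in tnfrsf1a. The order differed for il13ra1, where the 24 × 24 °C and 24 × 32 °C LPS groups (20.1 and 17.9 CPM) led, and the 32 × 24 °C LPS group (10.7 ± 2.82 CPM) lay beside the 24 × 24 °C controls (10.9 ± 3.05 CPM). For socs3b it ran from 24 × 24 °C LPS through 32 × 24 °C LPS, 24 × 24 °C control and 24 × 32 °C LPS to the remaining controls, and every group overlapped its neighbour.

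Few other genes of the pathways were called. Lists of ligands, receptors, adaptors, kinases, STATs and inhibitors around the members named 146 genes, of which 129 rows were matched and 70 tested. For the averaged LPS effect 2 of the 70 were up-regulated and 0 down-regulated (2.86%, against 1.7% of all genes called higher), and the median log2 fold change of the 70 was 0.034. Those 2 were the receptor chains lifrb and il4r.1. None of the 10 other tested genes of the TNF receptor superfamily was called (log2 fold change -0.38 to 0.57), nor any of 10 rows of TNF receptor adaptors (-0.13 to 0.94) or 10 rows of JAK kinases and STATs (-0.88 to 1.37). Among 15 other SOCS and JAK-STAT inhibitors none was called (-0.24 to 0.51, median -0.05), whereas socs3b was. The study's list from these libraries already names socs3b, so this contrast is not independent of how the members were chosen.

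**Figure D5:**
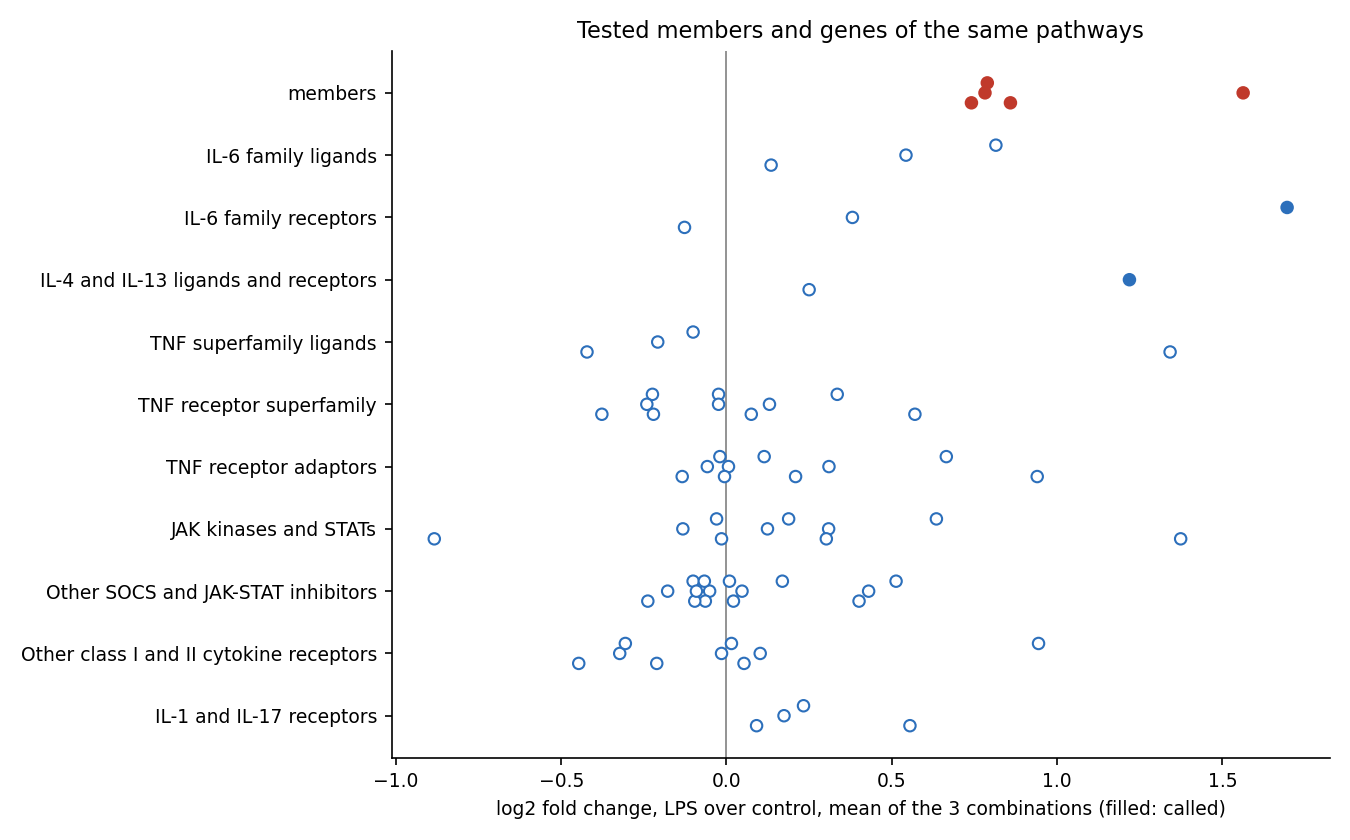
Log2 fold change of LPS over control averaged over the 3 temperature combinations (horizontal axis) for the 5 tested members (red, top) and the 70 tested genes of the pathway lists (blue, by list on the vertical axis). Filled points were called, which among the listed genes are lifrb (1.70) and il4r.1 (1.22).

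Listed genes were also compared between control larvae. Between 24 × 32 °C and 24 × 24 °C controls 3 of the 70 were called higher and 1 lower, where 3.01% of all genes were called higher and 3.2% lower. The decoy receptor gene il13ra2 averaged 2.02 ± 0.92 CPM in 24 × 32 °C controls and 6.20 ± 0.98 CPM in 24 × 24 °C controls (SD, n = 3 each) and fell by 1.60 on the log2 scale (adjusted p = 0.0216). That call was lost without control replicate 2 or 3 of either temperature (adjusted p up to 0.108). The prolactin receptor gene prlra was higher in 24 × 32 °C controls by 1.16 on the log2 scale (adjusted p = 0.00138). crfb6, of the class II cytokine receptor family (0.66, adjusted p = 0.0405), and a PIAS1 row, a STAT inhibitor (ENSDARG00000036094; 0.61, adjusted p = 0.0406), were also called higher. The call on crfb6 was lost in 9 of 18 fits that left out 1 library (adjusted p up to 0.216) and that on the PIAS1 row in 10 of 18 (up to 0.306).

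Several cell type markers differed between the LPS and control libraries in which the members rose, and their part in the members' changes was not tested. The summed level of 4 neutrophil markers ranged from 26.2 to 35.2 CPM in LPS and from 61.3 to 81.6 CPM in control larvae at 24 × 24 °C, from 12.2 to 21.9 CPM in LPS and from 20.2 to 46.0 CPM in control larvae at 24 × 32 °C, and from 15 to 30.6 CPM in LPS and from 26.7 to 64.7 CPM in control larvae at 32 × 24 °C. Of these 4, 2 were tested and 1 was called: lyz, encoding lysozyme, fell by 1.16 on the log2 scale (adjusted p = 0.00428). The untested marker csf3r had 5 counts in all. The listed neutrophil marker mpx matched no row, so the sum does not include it. Of 12 macrophage marker rows 4 were tested and 1 called, mpeg1.2, which fell by 1.72 (adjusted p = 0.0395). Their sum was 31.33 to 43.15 CPM in LPS and 46.97 to 94.99 CPM in control larvae at 24 × 24 °C. It was 43.58 to 60.34 and 59.34 to 81.05 CPM at 24 × 32 °C, and 25.35 to 40.8 and 19.49 to 90.08 CPM at 32 × 24 °C. None of the 4 tested markers of all leukocytes was called, and their list summed to 26.2 to 30.8 CPM in LPS and 27.7 to 32.9 CPM in control larvae at 24 × 24 °C. The leukocyte sums were 28.48 to 39.97 and 27.64 to 35.01 CPM at 24 × 32 °C, and 11.17 to 37.4 and 18.06 to 31.16 CPM at 32 × 24 °C. Of 6 epidermal markers, krt4 and krt5 fell (by 0.64 and 1.11, adjusted p = 0.0381 and 0.00488) and cdh1 was higher (1.1, adjusted p = 0.00133), with list sums of 3527 to 8643 CPM in LPS and 8309 to 11020 CPM in control larvae at 24 × 24 °C. The epidermal sums did not overlap at 24 × 32 °C (6460 to 9555 CPM in LPS, 12240 to 17770 CPM in controls). Nor did they at 32 × 24 °C (6158 to 9288 CPM in LPS, 10410 to 12550 CPM in controls). For the averaged effect, 3 of the 6 epidermal markers had a positive log2 fold change, with a median of -0.06 (-1.11 to 1.44). A sum follows the most abundant markers of the list, so the sums do not show a fall of all 6. Markers of muscle, liver and retina were detected in every group, and none was called for the averaged effect. The liver sums varied widely between pools at 32 × 24 °C, from 301.6 to 2805 CPM in LPS and from 354.3 to 1826 CPM in control larvae. The study's own list of changed genes at 24 × 24 °C, made from these same libraries, names lyz, mpeg1.2 and cdh1. The calls of these markers are therefore not independent of that list.

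The genes whose log2 levels followed each member most closely over the 18 libraries were taken from 15213 named genes with a mean of at least 1 CPM, as a description in which both genes share each library and its treatment. For tnfrsf11b they were hsd17b12a (Pearson's r = 0.903), shisa10.1 (0.882) and CR762483.1 (0.882). For tnfrsf1a they were timp2b (0.939), CTNND1 (0.931) and elovl1a (0.922), of which timp2b encodes a metalloproteinase inhibitor and CTNND1 an adhesion junction catenin. For il6st they were SPART (0.894), igfbp1a (0.892), which encodes a binding protein of insulin-like growth factors, and the AP-1 transcription factor gene fosl2 (0.884). For il13ra1 they were TRIM55 (0.905), cbx7a (0.900) and SLC16A9 (0.897), and for socs3b tgm2l (0.904), ms4a17a.5 (0.900) and clcn5b (0.879).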

How the data were processed

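The authors made TruSeq v2 libraries (no strand mark) from pools of whole larvae and read both ends. According to the submitters' processing notes, reads were trimmed with cutadapt 1.12, mapped by TopHat2 2.1.0 and counted by HTSeq 0.6.1p1, on GRCz10. The deposited values are raw counts for each Ensembl gene, without normalization. No strand setting for counting was given in the sources used here, so reads of overlapping genes cannot be told apart. All 18 libraries of 6 groups were used.

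The tests used edgeR 4.0.16 under R 4.3.3: filterByExpr (minimum count 10, minimum total 15), TMM scaling and robust quasi-likelihood on the 6 group means, with p-values adjusted over all 15722 tested genes. Log2 CPM used a prior count of 2. Intervals are at the 95% level. Alternatives were DESeq2 1.42.0, other libraries, scaling, filter or depth, no fold change threshold, a replicate block, and each library left out. Deviations from group means of same-numbered LPS and control libraries correlated with r between 0.195 and 0.559 at 32 × 24 °C. Replicate numbers may therefore pair libraries there, from the data and not from the labels. Replicate 2 (r = 0.28) did not correlate best with its own number. The tests at 32 × 24 °C were not paired, apart from the replicate block over all libraries. In the other comparisons at least 1 of the 3 pairs was under 0.1. Scripts were tested on simulated data.

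Names came from the study's supplementary tables (1458 rows) and a gene table (24757). 2 rows are named SOCS3 there; the supplementary tables name one socs3b, and the other was read as socs3a. The members, gene lists and the rule for named genes (all members, fixed partners and ligands, up to 3 called genes per list, and the 3 most correlated genes) were chosen with earlier results of these data known. Columns of fold changes and p-values in the supplementary tables were not used.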

Additional observations from a re-analysis of the deposited data

How the results depend on the processing

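The averaged LPS effect called the same 5 members under each of the 6 alternatives and in each fit that left out 1 library (adjusted p 0.0315 or less there). The alternative without the fold change threshold reused edgeR's fit and could only keep or add calls. At 24 × 24 °C, where edgeR called 0 members, DESeq2 on all 18 libraries and the fit with a replicate block called 1 each, edgeR fitted to that combination's 6 libraries called 3 and DESeq2 fitted to them 5, and leaving out 1 library gave 0 to 2 (1 without LPS replicate 1 of 24 × 24 °C or 32 × 24 °C, 2 without 32 × 24 °C LPS replicate 2). At 24 × 32 °C, where edgeR called 1, DESeq2 on all 18 libraries called 3 and edgeR on the 6 libraries 2, and leaving out 1 library gave 0 to 3 (3 without 32 × 24 °C LPS replicate 1 or 2). Between the 24 × 32 °C and 24 × 24 °C controls, where edgeR called 0, edgeR on the 6 libraries called 2, and DESeq2 on them and the replicate block 1 each. At 32 × 24 °C, between 32 × 24 °C and 24 × 24 °C controls, and for both differences between LPS effects, every alternative called 0 members. The causes were not tested. The study's own DESeq2 list at 24 × 24 °C was made from these libraries and already names the 5 members.

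Thinning all libraries to the smallest reversed the sign of 5 small, uncalled values: tnfrsf11b in the 24 × 32 °C controls (-0.35) and the 32 × 24 °C controls (-0.12), and, for the difference in LPS effect by incubation temperature, tnfrsf1a (-0.015), il6st (0.16) and il13ra1 (0.27). Leaving out 1 library turned the sign of uncalled values in these ranges. For the 24 × 32 °C controls they were tnfrsf11b -0.41 to 0.43, il6st -0.18 to 0.097 and il13ra1 -0.007 to 0.39. For the 32 × 24 °C controls the range was -0.34 to 0.034 for tnfrsf1a. For the difference by challenge temperature it was -0.12 to 0.14 for il6st. For the difference by incubation temperature they were tnfrsf11b -0.88 to 0.10, tnfrsf1a -0.37 to 0.33, il6st -0.41 to 0.11, il13ra1 -0.34 to 0.37 and socs3b -0.30 to 0.20.

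Counts of all genes called, on which the shares given beside the members rest, ranged over the alternatives other than leaving out 1 library from 45 to 332 at 24 × 24 °C (67 in edgeR's fit of all libraries), from 258 to 448 at 24 × 32 °C (307), from 1 to 58 at 32 × 24 °C (5), from 658 to 1616 between 24 × 32 °C and 24 × 24 °C controls (976), from 44 to 208 between 32 × 24 °C and 24 × 24 °C controls (77) and from 1 to 97 for the difference by challenge temperature (1). Leaving out 1 library gave 18 to 140, 93 to 455, 0 to 31, 400 to 1199, 12 to 138 and 0 to 2 in the same order, and 314 to 537 for the averaged effect (395). Over the 45 pairs of libraries of different groups with the same replicate number, deviations from group means correlated with a median r of 0.018 (-0.235 to 0.559), and 17 pairs exceeded 0.1, against 15 of 90 pairs with other numbers. Between LPS and control libraries, 1 of 3 same-number pairs exceeded 0.1 at 24 × 24 °C, 2 of 3 at 24 × 32 °C and 3 of 3 at 32 × 24 °C. At 32 × 24 °C the numbers may therefore mark pairs. The replicate block was fitted to all 18 libraries, with the effect of each number shared by all groups. With it no member's call changed at 32 × 24 °C (0 called, adjusted p 0.079 for socs3b). A fit that paired libraries only at 32 × 24 °C was not run. In the other comparisons the labels give only a shared number, and whether it marks pairs is not known. Leaving out single libraries for il11a was chosen after seeing the data. Other scalings moved no mean CPM of a member by more than its SD. With 1868228 counts in the smallest library, 3 counts equal 1.74 CPM there, which limits socs3a and the ligands.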
